A study of Homo sapiens with 9 samples.

Results

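The experiment examined here was the knockdown of LOX, the gene of lysyl oxidase, in the human hepatic stellate cell line LX-2. It compared 3 libraries from cells that received an siRNA against LOX with 3 libraries from cells that received a negative control siRNA, which is 6 of the 9 RNA-seq libraries of the series. The remaining 3 libraries, from cells given an siRNA against LOXL1, entered the fit only to help estimate the spread between libraries. All 3 groups received TGFβ1 at 10 ng/ml, so no library shows LX-2 cells without this cytokine. Cells were exposed to 25 nM of a targeting siRNA for 48 h, whereas neither amount nor time was stated for the control siRNA. The treatment label of control replicate 3 lacks the word siRNA. LX-2 is 1 established line, and the labels do not say that replicates came from separate cultures, so each p-value measures the spread between libraries, which may be technical. Control replicate 2 stood apart from the other controls in how its values followed GC content, and for several groups the median is also given without it.

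Lysyl oxidases are secreted, copper-dependent enzymes that oxidise lysine side chains in collagen and elastin, and the aldehydes they form join neighbouring chains into covalent crosslinks that stiffen the matrix. Hepatic stellate cells become matrix-producing myofibroblasts after liver injury, with TGFβ as a main driver, and crosslinked collagen is a feature of scarred liver. A small interfering RNA directs cleavage of the transcript it pairs with, so the transcript of the targeted gene is the first check of such an experiment.

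LOX was the only gene that passed the test. Its FPKM, a level scaled to transcript length and to the number of mapped fragments, was 47.69, 42.79 and 48.05 in the control libraries and 28.87, 30.83 and 25.55 in the LOX siRNA libraries. The groups did not overlap, and no library of the 2 other groups lay below the control value of 42.79. The mean fell from 46.2 ± 2.94 to 28.4 ± 2.67 FPKM (SD, n = 3 each), a change of -38.5%, so most of the transcript signal was still present. Whole cultures were measured, so a lower level in every cell cannot be told apart from a larger loss in a share of the cells. On the log2(FPKM + 1) scale LOX fell by 0.68 (SE 0.06, 95% interval -0.82 to -0.55, limma moderated test, adjusted p = 6.7e-04). The interval places the remaining level between 0.567 and 0.683 of the control level on that scale.

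Of the 11808 genes tested, which reached 1 FPKM in 3 or more of the 9 libraries, limma thus called 1 at an adjusted p under 0.05, or 0.00847%, and none was called higher. An unadjusted p under 0.05 was reached by 818 genes (6.93%). Groups that did not overlap were found for 1506 genes (12.8%), of which 801 were higher (6.78%) and 705 lower (5.97%) in the LOX siRNA libraries. Most estimates were small: 76 genes (0.644%) lay more than 0.25 from 0 on the log2 scale and 10 lay more than 0.5 away. Among the 8999 genes with a mean of 5 FPKM or more over the 6 libraries, these counts were 18 and 1, and the 1 was LOX.

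**Figure D1:**
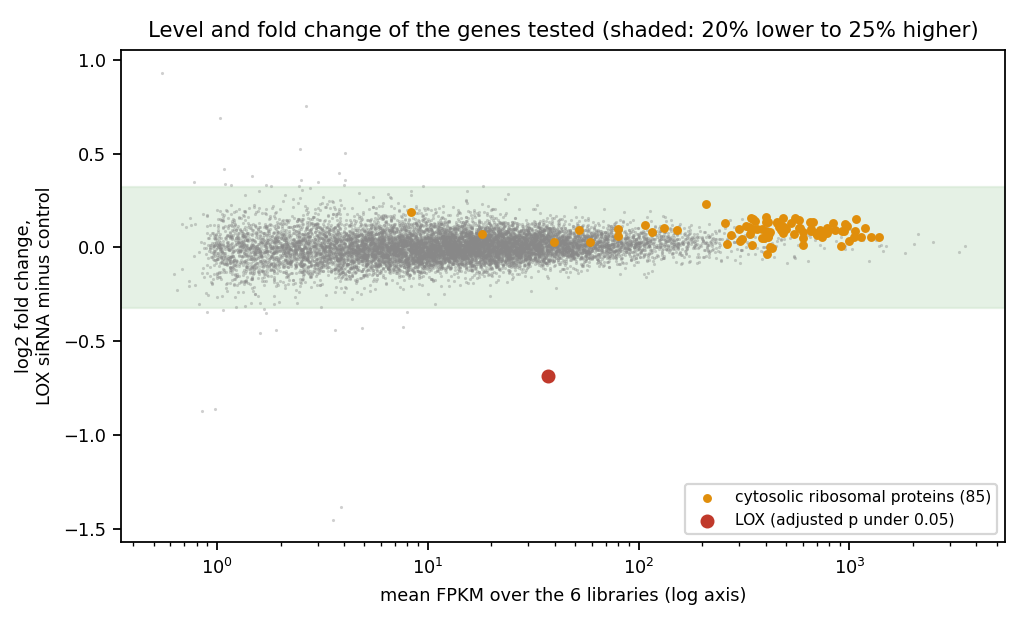
Log2 fold change on log2(FPKM + 1), LOX siRNA minus control, against mean FPKM over the 6 libraries (log axis) for all genes tested, with the band from 20% lower to 25% higher shaded. Among genes of 5 FPKM or more LOX, at -0.68, is the lowest, and the 85 cytosolic ribosomal protein genes lie mostly just above 0.

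By size alone, 7 genes had a larger estimated change than LOX, and they are named here after their values were seen. LIMS4 was at 4.47, 5.22 and 5.38 FPKM in the controls and at 5.48, 0.64 and 0.00 in the LOX siRNA libraries, and MTPN was at 4.68, 4.67 and 4.66 against 9.31, 0.00 and 0.00. In both genes a LOX siRNA library lay above every control while another was listed at 0, so the replicates of one group differed more than the groups did. The others were TNFAIP8L2-SCNM1, SULT1A3, TBC1D3I, SCHIP1 and TBC1D3C, which are readthrough transcripts, overlapping genes or members of families of near-identical copies; the part of fragment assignment in their values was not tested. None of the 7 passed the test, with adjusted p-values between 0.61 and 0.81.

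The other lysyl oxidases did not pass the test. LOXL2, the most abundant of the 5 family members, was at 85.68, 94.59 and 84.66 FPKM in the controls and at 89.94, 87.85 and 86.20 in the LOX siRNA libraries. The groups overlapped, the log2 fold change was 0.00 (95% interval -0.10 to 0.09), and the interval bounds the ratio between 0.935 and 1.06. LOXL1 was at 12.17, 13.50 and 11.29 FPKM against 12.52, 10.64 and 11.91, a log2 fold change of -0.07 (95% interval -0.27 to 0.13). LOXL3, at 2.42, 2.15 and 2.59 FPKM against 2.81, 2.54 and 2.72, leaned higher with overlapping groups and an interval of -0.04 to 0.29. LOXL4 was near 1 FPKM in both groups, with an interval of -0.15 to 0.27. For all 4 of these genes an equivalence test over all genes placed the ratio to the controls between 20% lower and 25% higher. The test bounds the ratio of FPKM + 1, so for LOXL3 and LOXL4, at low levels, FPKM itself may differ by more.

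**Figure D2:**
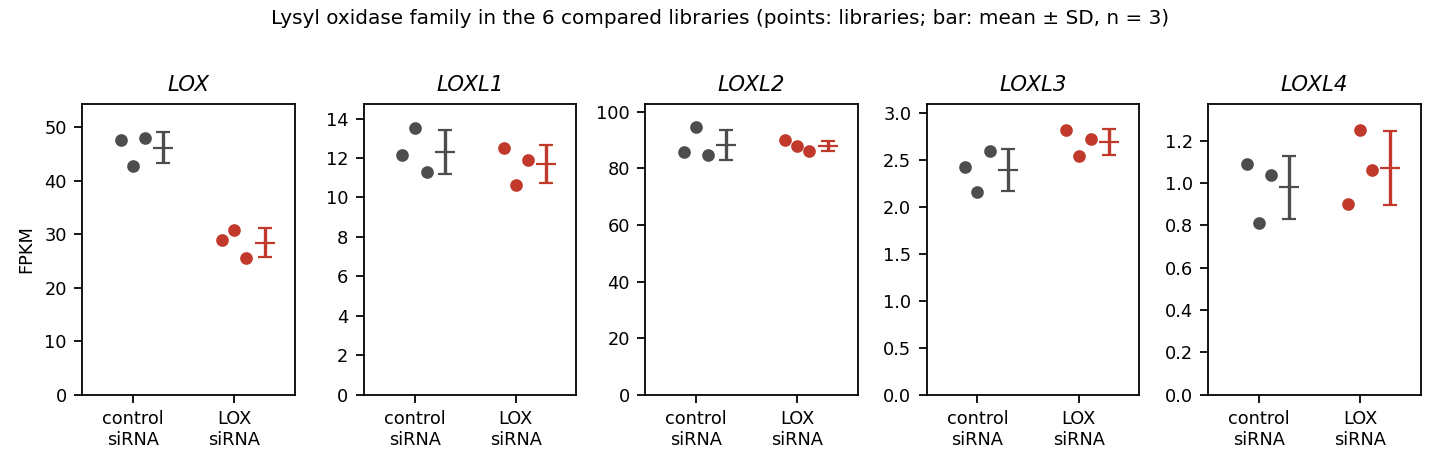
FPKM of the 5 lysyl oxidase family genes in each of the 3 control and 3 LOX siRNA libraries (points), with the mean and SD beside them; each panel has its own axis from 0. The groups separate for LOX, between 25.55 and 30.83 against 42.79 to 48.05, and overlap for the other four.

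The genes around LOX on chromosome 5 did not pass the test either. In the table LOX spans chr5:122063195-122078501 on the minus strand, and its longest listed transcript has 5318 bases. The nearest gene on one side, SRFBP1, was at 9.59, 8.28 and 8.92 FPKM in the controls and 8.07, 8.45 and 8.88 after LOX siRNA, with overlapping groups and a 95% interval of -0.20 to 0.06. PRR16 and SNCAIP, the other neighbours tested, had adjusted p-values of 0.95 and 0.76. FAM170A, ZNF474 and LOC100505841 were at 0.12 FPKM or less in all 6 libraries and were not tested.

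Genes that act on lysyl oxidase itself or supply its copper also showed no called change. Of 17 listed, 13 were tested, 5 had an estimate above 0, and the median was -0.01 on the log2 scale. CCS, which delivers copper to superoxide dismutase, was at 14.97, 14.19 and 13.40 FPKM in the controls and at 15.66, 16.15 and 16.15 in the LOX siRNA libraries. These groups did not overlap, but the adjusted p was 0.62 (limma, log2 fold change 0.16, SE 0.05). ATOX1, the chaperone that hands copper to the secretory pathway, had a log2 fold change of -0.07 and PCOLCE, an enhancer of procollagen processing, one of -0.06, both with overlapping groups.

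Because a p above the threshold does not show that a gene held its level, the size of change that the data exclude was estimated for every gene. For each gene, 2 one-sided tests with limma's moderated error asked whether the true ratio lay within a margin of 0.32 on the log2 scale in either direction, which runs from 20% lower to 25% higher, and the p-values were adjusted over all genes. The ratio was placed inside this equivalence margin for 11378 genes (96.4%). Precision followed the level of the gene: the 95% interval extended by a median of 0.17 on the log2 scale to either side of the estimate for 2709 genes between 1 and 5 FPKM, of which 89.0% were inside the margin. It was 0.12 for 4832 genes between 5 and 20 FPKM, with 98.3% inside, and 0.09 for 651 genes at 100 FPKM or more, with 99.8% inside. Over all genes it was 0.12, which is a ratio of 1.09. The margin concerns transcript levels on the log2(FPKM + 1) scale, which understates ratios of genes near 1 FPKM.

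Of the 44 genes listed for fibrosis (collagens, contractile proteins, TGFβ signalling, matrix proteins and their regulators), 40 were tested and 40 lay inside the equivalence margin. POSTN, ELN, PDGFRA and SPP1 were too low to test. The background over all genes was 96.4%, so this share does not set the fibrosis genes apart. In none of the 40 was the unadjusted p under 0.05. Estimates ranged from -0.12 to 0.09, 14 lay above 0, and the median was -0.02 against 0.00 for all genes tested.

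**Figure D3:**
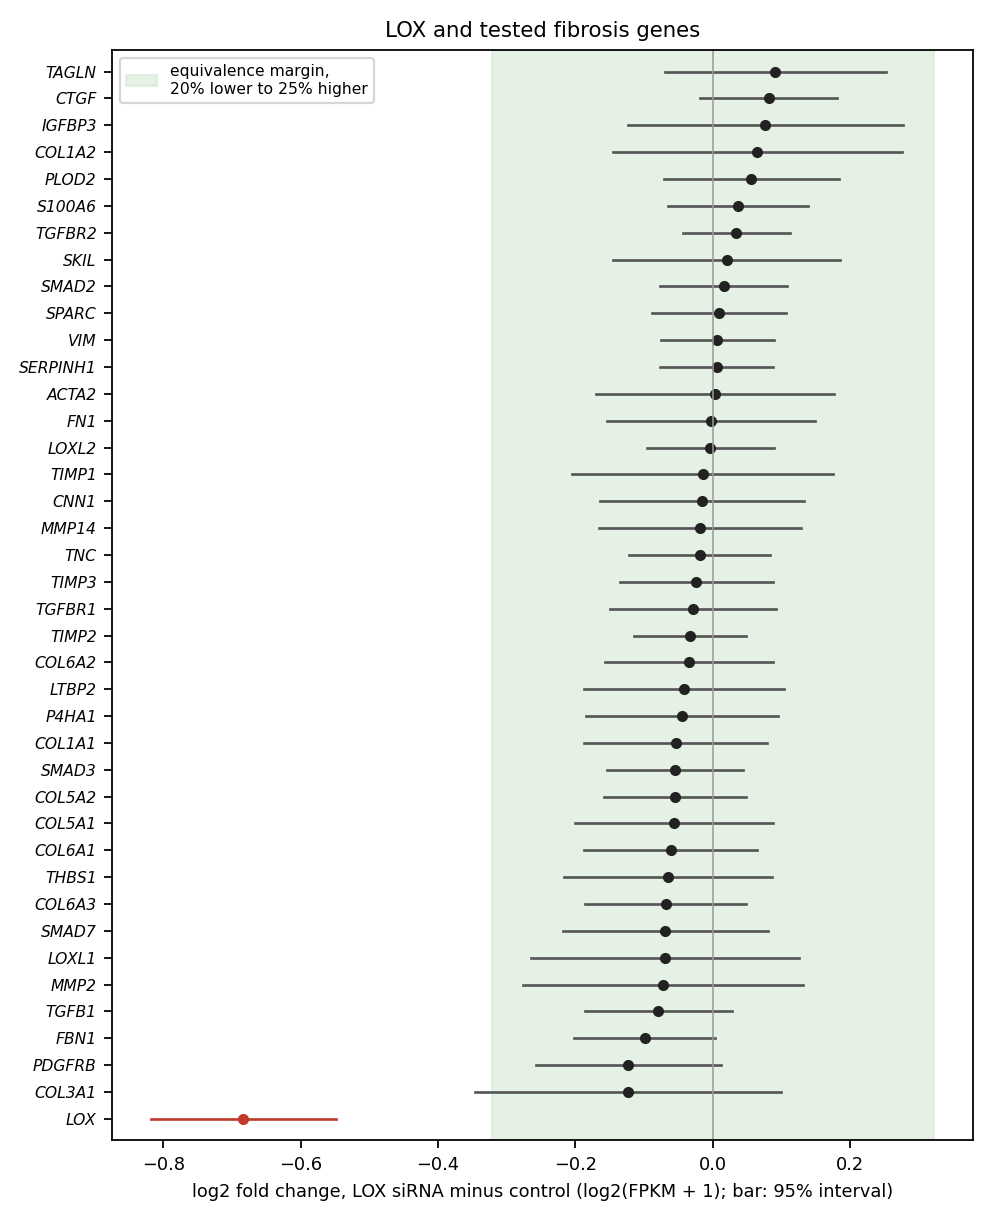
Log2 fold change with its 95% interval for LOX and for the tested fibrosis genes other than 1 that is not shown, ordered by estimate; the shaded band is the equivalence margin. The fibrosis genes lie between -0.12 and 0.09, and the interval of COL3A1, which reaches -0.35, is the only one of them to cross the band's edge.

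Among the collagens, COL1A1, the chain that dominates scar collagen, was at 234.00, 257.59 and 217.92 FPKM in the controls and at 238.05, 233.24 and 211.31 in the LOX siRNA libraries. The groups overlapped and the interval bounded the ratio between 0.878 and 1.06. COL1A2, its partner in the type I fibre, was at 4.12, 4.09 and 3.78 FPKM against 4.50, 4.38 and 3.82 (log2 fold change 0.07, interval -0.15 to 0.28). COL3A1 was at 8.26, 8.57 and 8.14 FPKM against 8.05, 7.47 and 7.18. Its groups did not overlap, but its interval was the widest among the fibrosis genes, -0.35 to 0.10, and it is the gene whose place inside the margin was least firm (limma equivalence tests, adjusted p = 0.040; one-sided tests use a narrower limit than the 95% interval shown).

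The markers of the myofibroblast state were equally close between groups. ACTA2, the smooth muscle actin that marks activated stellate cells, was at 7.05, 8.22 and 7.27 FPKM in the controls and 8.31, 7.61 and 6.71 after LOX siRNA, a log2 fold change of 0.00 (interval -0.17 to 0.18). TAGLN, an actin-binding protein of the same programme, had the highest estimate of the list, 0.09, with overlapping groups and an interval of -0.07 to 0.25. VIM, the intermediate filament of mesenchymal cells, averaged 1480 FPKM in the controls and 1487 in the LOX siRNA libraries, and its ratio was bounded between 0.949 and 1.06. PDGFRB, the receptor for a stellate cell mitogen, had a log2 fold change of -0.12 (interval -0.26 to 0.01) with LOX siRNA replicate 1 inside the control range.

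Secreted matrix proteins and transcripts that respond to TGFβ had intervals of similar width. FN1, fibronectin, was at 758.23, 765.78 and 731.57 FPKM in the controls and at 812.97, 805.32 and 645.79 in the LOX siRNA libraries. Replicate 3 of the LOX siRNA group was below all controls while replicates 1 and 2 were above them, and the interval was -0.15 to 0.15. CTGF, a matricellular protein and target of the TGFβ pathway, had a log2 fold change of 0.08 (interval -0.02 to 0.18). FBN1, the microfibril protein, was at 15.25, 13.90 and 14.06 FPKM against 13.83, 13.39 and 12.90, groups that did not overlap, with an adjusted p of 0.71. TGFB1 itself, the receptors TGFBR1 and TGFBR2 and the transducers SMAD2 and SMAD3 had estimates between -0.08 and 0.03.

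Beyond the fibrosis genes, the remaining matrix lists held no called gene. Of 13 tested nonfibrillar collagens, 4 were above 0, with a median of -0.05 that was -0.03 without control replicate 2. COL8A1, a short-chain collagen of vessel and injury matrix, was at 16.47, 15.86 and 16.05 FPKM against 13.72, 13.55 and 15.00, groups that did not overlap (log2 fold change -0.18, SE 0.05, limma adjusted p = 0.53). HSPG2, the basement membrane proteoglycan perlecan, had a log2 fold change of -0.19 and LAMA5, a laminin chain, one of -0.17, with adjusted p-values of 0.65 and 0.66. Of 13 tested elastic fibre genes 3 were above 0, with a median of -0.03 that was 0.00 without control replicate 2, and of 20 tested collagen-processing enzymes 9 were (median -0.01). Per library, the median of the 6 tested fibrillar collagens was 0.04, 0.07 and -0.04 from the mean of the 9 libraries in the controls and 0.06, 0.02 and -0.12 in the LOX siRNA libraries. LOX siRNA replicate 3 was thus the low one for collagens, while replicates 1 and 2 lay within the control range.

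Of 28 tested genes of the TGFβ pathway 14 were above 0 and 27 lay inside the margin, the exception being PMEPA1, an inhibitor of the pathway that was named after its values were seen. It was near 1 FPKM, at 0.83, 0.88 and 1.04 against 1.32, 1.19 and 0.90, with overlapping groups and an interval of -0.07 to 0.38. BAMBI, a decoy receptor, was at 2.65, 2.55 and 2.44 FPKM against 2.83, 3.27 and 2.72, groups that did not overlap (log2 fold change 0.15, SE 0.08, limma adjusted p = 0.71). Of 25 tested NF-kB and cytokine genes, 13 exceeded 0 (median 0.02), but only 16 lay inside the margin against 96.4% of all genes. IL6, an inflammatory cytokine named after its values were seen, was at 22.38, 25.15 and 17.66 FPKM against 23.10, 19.70 and 21.67, and its interval of -0.58 to 0.57 left changes of almost 1.5-fold possible in either direction. The interval of the chemokine CCL2, also named afterwards, was -0.73 to 0.72. In the LOXL1 siRNA libraries, which share in the estimate of spread, IL6 had an SD of 13.9 FPKM against 3.79 in the controls and 1.71 in the LOX siRNA libraries. When the 6 compared libraries were fitted alone, the IL6 interval was -0.22 to 0.21 and that of CCL2 -0.19 to 0.18, and 25 of the 25 genes lay inside the margin against 96.8% of all genes.

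Although no gene other than LOX passed the test, some functional groups leaned together by small amounts. Of 85 tested genes of the cytosolic ribosome, 83 were above 0 against 52.2% of all genes tested, and the median was 0.09. The estimates ran from -0.04 to 0.23, 41 of the 85 had an unadjusted p under 0.05, against 6.93% of all genes, and in 45 the LOX siRNA libraries lay above all controls, against 6.78%. The smallest adjusted p among them was 0.42. The group median stood at -0.07, 0.00 and -0.03 from the mean of the 9 libraries in the control libraries and at 0.05, 0.07 and 0.05 in the LOX siRNA libraries. The LOXL1 siRNA libraries were at -0.08, -0.03 and 0.03, so 1 of them approached the LOX siRNA range.

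RPS29, a small-subunit protein, was at 192.74, 198.28 and 182.23 FPKM in the controls and at 215.23, 236.14 and 223.21 after LOX siRNA (log2 fold change 0.23, SE 0.05). RPS15A was at 454.62, 444.20 and 468.06 against 509.12, 510.90 and 501.37 (0.15, SE 0.03), and RPL17 at 997.86, 1039.13 and 1015.01 against 1100.64, 1163.14 and 1130.91 (0.15, SE 0.04). In each of these the groups did not overlap, and each missed the adjusted threshold. Ribosomal protein genes have many processed copies in the human genome, and the sources used here do not say how fragments were shared among them.

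Many ribosomal protein mRNAs begin with an oligopyrimidine run, the element through which translation of this class is controlled together, so the transcript starts of the group were read from RefSeq (GRCh38.p14). The 30 bases around the annotated start are shown for 4 members, with the first 5 transcribed bases in capitals. RPS29 and RPL17 have the lowest unadjusted p-values among the members without the run at the annotated start, and RPLP2 and RPS3A among those with it. They lie at chr14:49598696-49598725 (minus strand), chr18:49492451-49492480 (minus strand), chr11:809952-809981 (plus strand) and chr4:151099613-151099642 (plus strand).
RPS29: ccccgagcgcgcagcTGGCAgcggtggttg
RPL17: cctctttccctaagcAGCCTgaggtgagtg
RPLP2: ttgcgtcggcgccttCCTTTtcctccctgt
RPS3A: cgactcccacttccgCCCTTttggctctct

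A start with C followed by 4 bases that are each C or T was sought on the transcribed strand alone. It was found in 45 of the 68 cytosolic ribosomal protein genes with an entry (66.2%). The share was 5.59% of the 9780 tested genes with an entry and 4.04% of the 27305 reference promoters. Across the 502 tested genes that share this start but are no cytosolic ribosomal protein, the median log2 fold change was 0.01. Of them 58.0% were above 0, against 51.8% of the 9233 genes with another start, whose median was 0.00. Within the cytosolic ribosomal proteins, the median was 0.10 for the 45 genes with the run, 44 of them above 0, and 0.09 for the 23 without it, 22 of them above 0. The match describes these letters at one annotated position and no more.

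The respiratory chain leaned the same way. Of 37 tested genes of complex I, 33 were above 0 with a median of 0.08, and of 38 tested genes of complexes II to V, 35 were above 0 with a median of 0.07; all 37 and all 38 lay inside the equivalence margin. NDUFV2, a core subunit of the electron input module of complex I, was at 126.19, 127.01 and 132.92 FPKM in the controls and at 146.59, 141.79 and 138.21 after LOX siRNA (log2 fold change 0.14, SE 0.04). SDHB, the iron-sulphur subunit of complex II, was at 54.37, 54.07 and 54.39 against 58.89, 60.49 and 62.65 (0.16, SE 0.04). ATP5H, a stalk subunit of ATP synthase, was at 74.70, 80.61 and 83.82 against 90.70, 93.66 and 88.56 (0.19, SE 0.05). The groups were separate in all 3, which were named for their small unadjusted p. In complex I the LOX siRNA libraries lay above all controls for 5 of 37 genes, against 6.78% of all genes. The median complex I transcript had 873 bases. Among the 1181 tested genes with the shortest transcripts, 339 to 1349 bases, 195 lay above all controls, so complex I did not exceed genes of such length. In complexes II to V the LOX siRNA libraries lay above all controls for 15 of 38 genes. The smallest limma adjusted p in either list was 0.48. Mitochondrial ribosomal proteins (65 of 79 above 0, median 0.04), translation factors (31 of 39, median 0.04), mitochondrial import proteins (17 of 23, median 0.05) and the proteasome (28 of 37, median 0.04) had smaller medians of the same sign. Leaving out control replicate 1 brought the proteasome median to 0.02, and leaving out LOX siRNA replicate 1 to 0.03; the import median was 0.03 without LOX siRNA replicate 3. After quantile normalization the translation factors were at 0.01 and the proteasome and import proteins each at 0.03.

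On the other side stood groups with long transcripts. Integrins and their adhesion partners had 8 of 29 above 0 and a median of -0.05, with per-library medians of 0.03, 0.03 and 0.01 in the controls and -0.01, -0.01 and -0.02 in the LOX siRNA libraries, which did not overlap. ITGA6, a laminin receptor chain, was at 27.07, 26.93 and 27.99 FPKM against 25.94, 25.52 and 24.75 (log2 fold change -0.10, SE 0.05, limma adjusted p = 0.71). Protocadherins, cell adhesion molecules of which many are encoded in clusters on chromosome 5, had 6 of 27 above 0 and a median of -0.06. Protocadherins of one cluster share exons, so their values are not independent of each other.

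The 60 gene name roots with at least 20 tested members were also ordered by their medians. RPS, RPL, COX and COL share genes with the lists above, so their places are not independent of those lists. The highest medians belonged to RPS (0.09), RPL (0.08) and COX (0.06) and the lowest to COL (-0.05). The median transcript had 897 bases for RPS and 930 for COX, against 6202 for COL. Across the 60 roots, the Spearman correlation between the median log2 fold change and the median transcript length was -0.51, given as a description because all roots share the same 6 libraries. After the removal of length and GC trends described below, this correlation was -0.11.

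**Figure D4:**
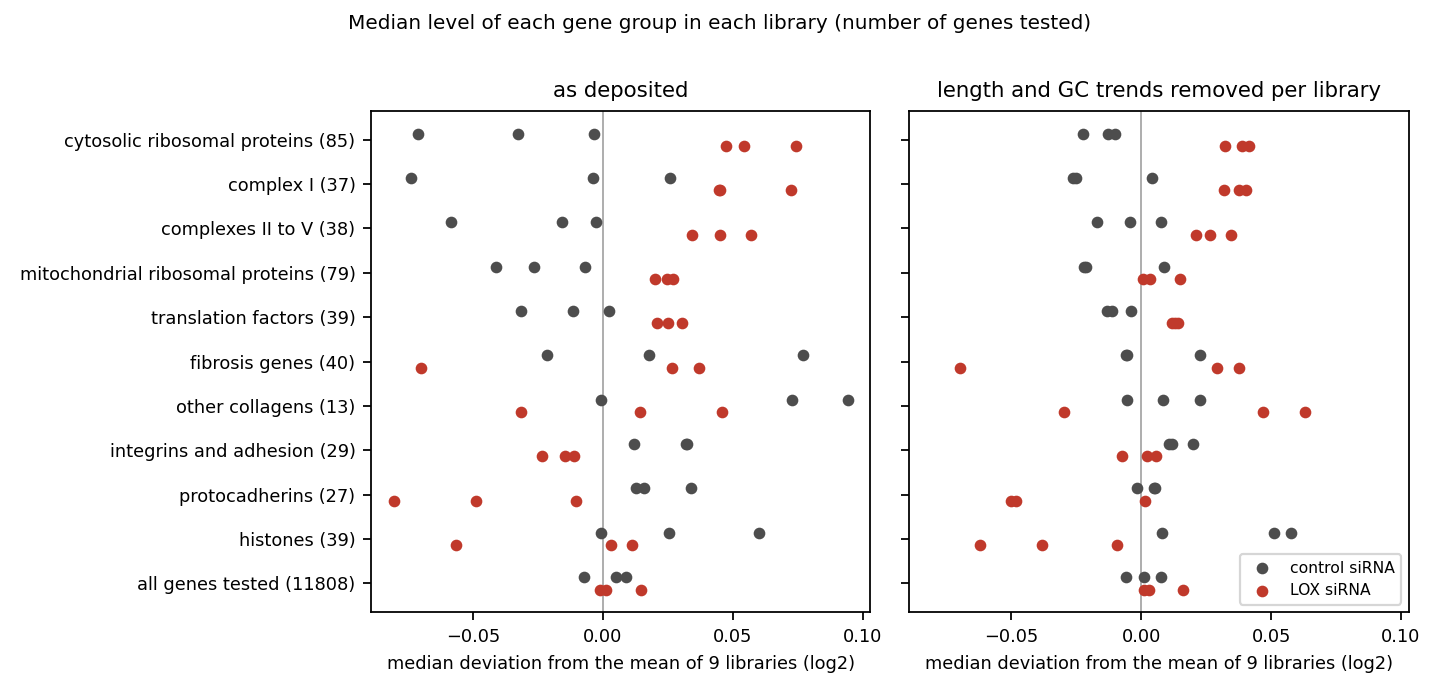
Median deviation of each gene group from the mean of the 9 libraries (log2 scale) in the 3 control and 3 LOX siRNA libraries, as deposited (left) and after length and GC trends were removed within each library (right). Cytosolic ribosomal proteins remain apart on both sides (-0.02 to -0.01 against 0.03 to 0.04 on the right), while fibrosis genes overlap on both.

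Across all genes, the fold change tilted with transcript length. The genes were ordered by transcript length and cut into 10 groups of 1180 or 1181 genes. In the group of shortest transcripts, 339 to 1349 bases, the median log2 fold change was 0.05 and 73.5% of genes were above 0. In the group of longest transcripts, 6945 to 27748 bases, it was -0.04 and 22.3% were above 0. Between these the median was lower in each successive group. Groups that did not overlap followed the tilt: among the shortest 195 genes were higher and 17 lower in the LOX siRNA libraries, and among the longest 11 were higher and 230 lower, each out of 1181 genes, where 6.78% of all genes were higher and 5.97% lower. Across the 11808 genes, which are not independent replicates, the Spearman correlation between fold change and length was -0.35, and -0.34 without 164 ribosomal protein genes.

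Library by library, this tilt did not separate the groups when all genes tested were used with their values as deposited. The slope of a library's deviation on length, in log2 units per doubling of transcript length, was 0.0279, -0.0188 and 0.00993 in the controls and -0.0184, -0.0208 and -0.0186 in the LOX siRNA libraries. The 3 LOX siRNA libraries were alike, but control replicate 2 had a slope within their range. The difference of means was -0.0256, with a two-sided exact permutation p of 0.3 over the 20 arrangements of 3 against 3, a design whose smallest possible p is 0.1. Without control replicate 2 the difference was -0.0382 (p = 0.1 in the exact test, the smallest that 2 against 3 allows), and without control replicate 1 it was -0.0148. Among genes with a mean of 5 FPKM or more the difference was -0.0307, and after quantile normalization it was -0.0229, with an exact permutation p of 0.1 in both, the smallest that 3 against 3 allows. The LOXL1 siRNA libraries had slopes of 0.0306, 0.0151 and -0.00683.

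**Figure D5:**
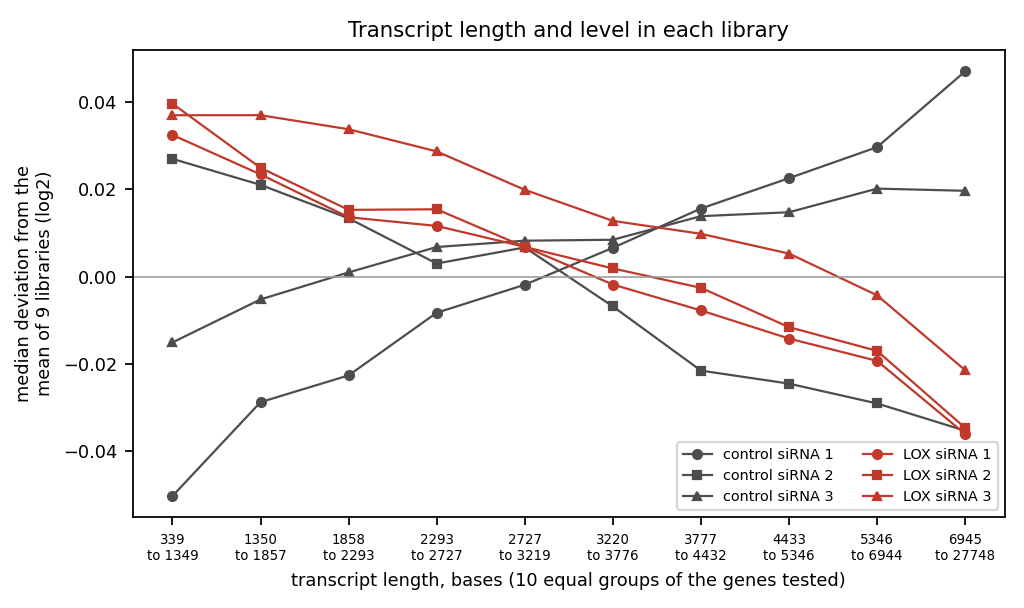
Median deviation from the mean of the 9 libraries (log2 scale) for 10 equal groups of the genes tested, ordered by transcript length (bases), 1 line for each control and LOX siRNA library. The 3 LOX siRNA lines and that of control replicate 2 descend, from between 0.03 and 0.04 in the shortest group to between -0.04 and -0.02 in the longest, and the lines of control replicates 1 and 3 ascend.

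Control replicate 2 also differed from its group in base composition. Across genes, the Spearman correlation between GC content and a control library's difference from the other controls was 0.66 for replicate 2, against -0.34 and -0.52 for replicates 1 and 3. Its FPKM total was 394842, above the 384881 and 387876 of the other controls and below the 395013 to 396088 of the LOX siRNA libraries. Whether length or GC content plays a part in any single gene's value was not tested.

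Each library's smooth dependence on length and GC content was also subtracted and the fit repeated on the 11795 genes with both values. LOX itself was at -0.68 as before. The median of the cytosolic ribosomal proteins went from 0.09 to 0.06, with 77 of 85 above 0, and the per-library medians were -0.02, -0.01 and -0.01 in the controls and 0.03, 0.04 and 0.04 in the LOX siRNA libraries, which did not overlap. Complex I went from 0.08 to 0.05 and complexes II to V from 0.07 to 0.03, both with separate library medians, whereas for mitochondrial ribosomal proteins (0.02) and the proteasome (0.01) the libraries overlapped. After quantile normalization of the libraries, with no trend removed, the ribosomal median was 0.04. Without control replicate 2, and on the values as deposited, it was 0.11 with 85 of 85 genes above 0. The medians of complex I and of complexes II to V were then both 0.09, that of the fibrosis genes 0.00 and that of the protocadherins -0.07, and LOX was at -0.74. Leaving out control replicate 1 instead lowered complex I to 0.06 and complexes II to V to 0.05. After quantile normalization these 2 medians were also 0.06 and 0.05.

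The groups on the low side came closer to 0 under the same treatment. Nonfibrillar collagens went from -0.05 to 0.01 and fibrosis genes from -0.02 to 0.00 with 22 of 40 above 0. Integrins and adhesion partners went from -0.05 to -0.01, with library medians that still did not overlap. Protocadherins went from -0.06 to -0.03, and their library medians, separate before, then overlapped.

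Histone genes went against the trend. Their transcripts are short, with a median of 472 bases, yet 18 of 39 were above 0 and the median was -0.03; after the trends were removed it was -0.06 with 10 above 0 and separate library medians. The median before that removal was -0.07 without control replicate 1 and -0.01 without control replicate 3. HIST1H2BG, a core histone gene, was at 4.40, 3.84 and 4.66 FPKM in the controls and at 3.42, 2.20 and 3.17 after LOX siRNA (log2 fold change -0.44, SE 0.11, limma adjusted p = 0.50), and HIST1H3D at 11.88, 12.91 and 11.49 against 9.89, 10.07 and 8.95 (-0.30, SE 0.09, adjusted p = 0.57). Replication-dependent histone mRNAs lack a poly(A) tail and many of the genes are near-identical copies. Only 17 of the 39 lay inside the equivalence margin, so the list was measured loosely. Genes of mitosis had 19 of 28 above 0 and a median of 0.02, which without control replicate 2 became 13 of 28 and -0.01. Genes of replication had 18 of 29 above 0 and a median of 0.01. MKI67, the proliferation antigen, was at -0.11 (95% interval -0.22 to 0.01) and PCNA, the replication clamp, at 0.06 (-0.02 to 0.14).

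Stress and regulatory programmes were examined as well. The median of the interferon genes was -0.01 with 14 of 29 above 0, and after the trends were removed -0.02 with 8 of 29 above 0. Their library medians were 0.03, 0.05 and 0.03 in the controls and -0.01, 0.03 and 0.02 in the LOX siRNA libraries, which did not overlap before rounding, and without control replicate 1 the group median was -0.04. The median log2 fold change lay within 0.02 of 0 for cholesterol synthesis (12 of 24), the unfolded protein response (15 of 25), p53 targets (12 of 22), hypoxia and glycolysis (15 of 23), lysosomal genes (11 of 25), oxidative stress genes (11 of 18) and targets of YAP and TEAD (10 of 26). No member of these lists passed the test. Of the 26 YAP and TEAD targets, 5 were below all controls, against 5.97% of all genes, and 1 was above them all, against 6.78%. The smallest limma adjusted p among these targets was 0.42, and the library medians of the list overlapped. The RNA interference machinery, which all 3 siRNA groups use, had 4 of 13 above 0 and a median of -0.02. Its library medians were 0.06, -0.01 and -0.01 in the controls and -0.03, -0.03 and -0.02 in the LOX siRNA libraries, which did not overlap. After the trends were removed they overlapped, and the median log2 fold change was 0.01. ATF4, the transcription factor of the integrated stress response, was at 395.52, 412.75 and 406.87 FPKM against 436.97, 433.07 and 423.12 (log2 fold change 0.09, SE 0.03, adjusted p = 0.68 in limma).

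The genes with the smallest unadjusted p in each direction, among those of 5 FPKM or more with separate groups, are given here; none of them other than LOX passed the test. GEMIN6, a component of the SMN complex that assembles spliceosomal particles, was at 15.37, 16.45 and 16.66 FPKM in the controls and at 19.81, 21.39 and 20.45 after LOX siRNA (log2 fold change 0.33, SE 0.06). CLDN12, a claudin, was at 33.71, 31.38 and 35.54 against 27.48, 29.39 and 28.37 (-0.23, SE 0.05). Both had an adjusted p of 0.42 in limma. DUSP7, a phosphatase of MAP kinases, stood at -0.18, PDPK1, the kinase upstream of AKT, at -0.25, ASAP1, an ARF GTPase-activating protein, at -0.22, and FOSL2, a subunit of AP-1, at -0.17. On the other side were SMIM20 at 0.22, STYXL1 at 0.21, GSTO1 at 0.21, SEC61B, a subunit of the translocon, at 0.16 and SSBP1, which binds mitochondrial DNA, at 0.19. C11orf74 (0.24) and C8orf88 (0.33) were higher as well, and RPIA, an enzyme of the pentose phosphate pathway, and RAB40C lower (-0.25 and -0.21). AGAP9, a member of a family of near-identical copies, and RBM14-RBM4, a readthrough transcript, had estimates of -0.20 and -0.42; whether shared sequence plays a part in them was not tested.

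As a check of the cells, 9 of 16 stellate markers were at 1 FPKM or more in all 6 libraries, with sums of 1973 to 2093 FPKM in the controls and 1964 to 2063 after LOX siRNA. VIM alone averaged 1483 FPKM over the 6 libraries, so these sums mainly follow VIM and say little about the other markers. DES, LRAT, DCN, LUM, PDGFRA, RGS5 and NES were below 1 FPKM in all 6. None of the 8 hepatocyte markers and none of the 7 endothelial markers in the table reached 1 FPKM in any of the 6. Of 8 leukocyte markers 3 did in all 6, led by CD68 at 41.6 FPKM, a lysosomal protein not confined to macrophages, while CD3E was at 0. Among 5 biliary markers SOX9 led at 11.6 FPKM. No marker sum separated the groups.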

How the data were processed

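RNA from LX-2 cells was sequenced on a BGISEQ-500, per the labels' protocols, and the deposited table holds 1 FPKM value, made by the authors, for each of 17123 genes and 9 libraries. TopHat2 2.0.10 and the build hg19 are named in the submitters' processing notes. The gene coordinates in the table, however, lie within 5000 bases of those of GRCh38.p14 for 91.3% of the genes matched by ID, so they are read here as GRCh38. The sources used here give neither strand handling, nor the treatment of fragments that map to several places, nor the depth. FPKM totals were 384881 to 396088 and 11663 to 11728 genes per library were at 1 FPKM or more. Low FPKM values times transcript length, kept within a fixed window read as 1 fragment, had medians of 57.5 to 58.9 per library. The window itself limits how far these medians can differ, so they cannot show whether depths were equal.

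Genes at 1 FPKM or more in at least 3 of 9 libraries were fitted on log2(FPKM + 1), a pseudocount of 1, in limma 3.58.1 (R 4.3.3) with the 3 groups and a mean-variance trend. P-values were Benjamini-Hochberg adjusted over all 11808 genes, with a threshold of 0.05. Equivalence used 2 one-sided tests at 0.32 on the log2 scale (20% lower to 25% higher). Length and GC trends were removed with splines of 4 degrees of freedom. Permutation tests and medians used Python 3.11.15 with scipy 1.17.1. The scripts were tested on simulated data. Pearson's r on the log scale was 0.996 to 0.998 within and 0.996 to 0.997 between the 2 groups. Members and gene lists were chosen with earlier results of these data known. Named genes are LOX, its family and neighbours, the fibrosis list, up to 4 members of each other list by smallest unadjusted p, and the 10 genes of smallest unadjusted p in each direction with separate groups and a mean of 5 FPKM or more. Some listed genes are not reported here by name.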

Additional observations from a re-analysis of the deposited data

How the results depend on the processing

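LOX stayed past the adjusted threshold under all 18 alternatives, with log2 fold changes from -0.74 to -0.61 and adjusted p-values up to 0.028 (limma, no filter). The count of called genes was 1 under most of them; it was 2 with length and GC trends removed, where CLDN12 was added (adjusted p = 0.025), and 2 with no filter on low values, where LOC102724279 was added (adjusted p = 0.016). Leaving out each library in turn gave 1 to 2 called genes, the second being LIMS4 without LOX siRNA replicate 1. The fit with the replicate number as a block called 1 gene. Correlations of same-numbered deviations were -0.0128, -0.0395 and 0.0179, within the range of -0.0520 to 0.0561 among different numbers. No sign of pairing by number was thus seen, but 3 such values cannot show its absence. Fibrosis genes inside the equivalence margin numbered 39 or 40 of 40 under every alternative that tested those 40, 38 of 38 at a mean of 5 FPKM or more and 43 of 44 with no filter; the gene outside was COL3A1, or IGFBP3 without LOX siRNA replicate 3. All genes inside it numbered 10467 with a pseudocount of 0.1, 10791 with a 1.2-fold margin and 11762 with a 1.5-fold margin.

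The length slope difference kept its sign under every alternative run, between -0.0382 and -0.0148. Its exact permutation p was 0.1, the smallest possible, at a mean of 5 FPKM or more (-0.0307), after quantile normalization (-0.0229) and without control siRNA replicate 2. The ribosomal median was 0.04 after quantile normalization, 0.07 without control siRNA replicate 1 and 0.11 without control siRNA replicate 2. The fibrosis median ran from -0.05 to 0.01 and changed sign in 2 of 18 alternatives, and that of the TGFβ pathway in 6 of 18. With no filter on low values the medians were -0.01 for protocadherins and -0.03 for integrins. With 3 libraries a group, values in FPKM alone and no depth, the unadjusted 95% interval of a typical gene spans 1.09-fold to either side. Smaller changes are not resolved, and larger ones can still miss the adjusted threshold, as those of GEMIN6 and CLDN12 did in the main fit.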
